A study of Mus musculus with 7 samples.

Results

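Of the 1926 differentially methylated regions (DMRs) that the authors deposited for airway macrophages (AMs), 6 were assigned to 5 imprinted genes and held at least 9 CpGs each: 1 region each at Cdkn1c, Gnas, Airn and Inpp5f, and 2 at Slc38a4. These members were taken by gene symbol, and the genes had been selected on the number of CpGs in their regions, with the lower level in Scnn1b-Tg AMs already known. Their levels, their direction and their CpG numbers were therefore used in the choice and are given here as a description, with no test. The smallest member region, at Inpp5f, held 9 CpGs, and the imprinted genes just outside the choice, Peg3 and Rasgrf1, each had a region of 8 CpGs.

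The DMRs came from tagmentation-based whole-genome bisulfite sequencing (tWGBS) of AMs sorted from lung as CD45+ Siglec-F+ CD11c+ cells. Scnn1b-Tg mice carry the Scnn1b subunit of the epithelial sodium channel under the club cell secretory protein promoter, so the transgene acts in the airway epithelium and the AMs are exposed to its mucus-obstructed airspace. There were 3 Scnn1b-Tg and 4 wild-type (WT) samples on a C57BL/6 background, untreated, and the study's methods describe 6-week-old female mice for sorting, with WT littermates as controls. The labels do not say whether a sample was 1 mouse, and the sorted cell type could not be checked against marker genes because the table holds methylation only. For each region the table gives 1 mean level per genotype as a fraction from 0 to 1, so the spread between samples and the number of reads behind each region's level are unknown here. The columns of levels do not name the genotype, and they were assigned from the number of regions that the study describes as reduced.

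An imprinted gene is expressed from only one parental copy, and the copies are told apart by DNA methylation laid down in an egg or sperm and kept through later cell division at a germline imprinting control region. Most germline control regions are CpG-rich promoters that are methylated on the maternal allele, and some imprinted promoters acquire a secondary, somatic mark after fertilisation. A mark on one parental allele only gives an intermediate level when both alleles are read together. The deposited means of an inbred strain do not separate the alleles.

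The stretches below show the CpG-dense sequence that the levels describe, read from RefSeq GRCm38.p6 (mm10, plus strand), with each CpG in capitals. Each begins and ends on a CpG of the region, apart from the longer Slc38a4 region and the Inpp5f region, for which the stretch of 300 and of 30 bases with the most CpGs is shown. The table ends each region on the C of its last CpG, so 1 base was added to show the G.
Gnas, chr2:174299759-174300052: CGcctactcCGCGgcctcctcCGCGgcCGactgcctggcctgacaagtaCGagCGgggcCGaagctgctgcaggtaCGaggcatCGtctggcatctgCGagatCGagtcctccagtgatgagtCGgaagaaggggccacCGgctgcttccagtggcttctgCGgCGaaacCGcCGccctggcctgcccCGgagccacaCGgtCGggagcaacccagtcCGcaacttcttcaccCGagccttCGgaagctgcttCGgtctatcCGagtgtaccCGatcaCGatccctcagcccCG
Slc38a4 longer region, chr15:97055029-97055328: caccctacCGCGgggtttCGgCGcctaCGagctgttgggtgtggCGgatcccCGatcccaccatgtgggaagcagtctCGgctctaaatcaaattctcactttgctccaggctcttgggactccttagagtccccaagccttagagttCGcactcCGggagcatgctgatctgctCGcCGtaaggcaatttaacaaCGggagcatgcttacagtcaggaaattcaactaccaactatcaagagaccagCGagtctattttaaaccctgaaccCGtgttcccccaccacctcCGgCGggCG
Slc38a4 shorter region, chr15:97054666-97054787: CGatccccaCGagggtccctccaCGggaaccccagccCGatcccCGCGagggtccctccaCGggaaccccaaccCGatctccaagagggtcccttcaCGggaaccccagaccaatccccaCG
Airn, chr17:12741733-12741827: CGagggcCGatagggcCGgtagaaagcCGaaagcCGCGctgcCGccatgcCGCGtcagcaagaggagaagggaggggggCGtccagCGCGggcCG
Inpp5f, chr7:128688528-128688557: gCGcctCGCGctccagctgccaaCGctgCG

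All 6 regions had a lower level in Scnn1b-Tg than in WT AMs, where 72.9% of the 1926 deposited regions did (1404 regions). Since the choice used this direction, nothing is read from that count. The authors' means averaged 0.539 in WT and 0.376 in Scnn1b-Tg AMs over the 6 regions, with an SD between regions of 0.0531 and 0.0517. The Scnn1b-Tg level was 64.7% to 74.2% of the WT level at every member, with the genes on 4 chromosomes. The median of this share was 69.3% over the members and 69.6% over all 1404 lower regions, with an SD between regions of 3.77 and 9.26. The levels were used in the choice and both Slc38a4 regions share a promoter, so nothing is read from the smaller SD. The differences, from -0.194 to -0.148, were small for this list, in which the median region changed by 0.233 in absolute terms.

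Airn is the noncoding RNA, expressed from the paternal allele, whose transcription silences Igf2r, the receptor that clears insulin-like growth factor 2. Its region, chr17:12741733-12741826, held 13 CpGs in 94 bp, and the deposited mean was 0.595 in WT and 0.441 in Scnn1b-Tg AMs, the highest of the member regions in both genotypes. It lay 335 to 422 bp downstream of the annotated Airn starts near it, in intron 1 of Airn, and at the same time in intron 2 of the 47 introns of Igf2r, which is transcribed from the other strand. This is the place of the germline control region of the locus, known as region 2. The promoter of Igf2r itself, 27.8 kb away, is the site of a secondary mark in mouse, and the table lists no region assigned to Igf2r.

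Gnas encodes the stimulatory G protein alpha subunit and, from promoters upstream, the variants XLas (Gnasxl, expressed from the paternal allele) and Nesp (from the maternal allele), with the antisense RNA Nespas. The Gnas region, chr2:174299759-174300051, held 30 CpGs in 293 bp, with a level of 0.540 in WT and 0.369 in Scnn1b-Tg AMs as the authors' means. It lay wholly within the coding part of exon 1 of XLas, 1900 bp downstream of that start and 4323 bp from the start of Nespas, that is at the Nespas-Gnasxl control region, which is methylated on the maternal allele. The Gnas locus has another maternally methylated region at exon 1A, which bears on the promoter of the stimulatory subunit, and the starts of transcripts there were 27519 to 27972 bp downstream of the DMR. No other region in the table was assigned to Gnas. The start at position 174330006, from which the stimulatory subunit is made, was 29955 bp downstream of the DMR.

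Slc38a4 encodes a sodium-coupled amino acid transporter that is expressed from the paternal allele in several mouse tissues and whose promoter is methylated on the maternal allele. The longer region, chr15:97054980-97055539, held 28 CpGs in 560 bp and had a deposited mean of 0.551 in WT and 0.357 in Scnn1b-Tg AMs, the largest difference among the members (-0.194). The shorter region, chr15:97054666-97054786, held 10 CpGs in 121 bp, with 0.551 in WT and 0.388 in Scnn1b-Tg AMs. Both lay in intron 1 of 15, 417 and 1170 bp downstream of the start of the gene, and 193 bp with 6 reference CpGs separated them. The WT levels of both regions were thus the same at 3 digits, while the Scnn1b-Tg level was higher in the shorter one. The regions share a promoter and the same samples and are not replicates of each other.

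The shorter Slc38a4 region is a tandem repeat. At an offset of 37 bases, 87.1% of its bases equalled the base further along, which ranked 15 among 1926 regions, where the median of the best offset between 10 and 60 bases was 34.9%. In the sequence printed for it, the block that begins CGatcccc recurs 37 bases on. Of the other member regions, none exceeded 42.2% (Inpp5f), and 2.60% of all regions reached 60%. How the repeat bears on read placement was not tested.

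Inpp5f encodes a phosphoinositide phosphatase, and a short variant of it, Inpp5f_v2, starts within the gene and is expressed from the paternal allele in mouse. The region, chr7:128688520-128688581, held 9 CpGs in 62 bp, with an authors' mean of 0.560 in WT and 0.410 in Scnn1b-Tg AMs. It lay 31 bp downstream of the start of the short transcripts at position 128688489, in their exon 1, and 77160 bp downstream of the start of the full-length gene, in intron 15 of 19. It is therefore placed at the nested promoter and not at that of the full-length transcript. Of its 62 bases, 47 also overlapped the annotated processed pseudogene Gm43580, which gave a nearer start than that of Inpp5f.

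Cdkn1c encodes the cyclin-dependent kinase inhibitor p57, a brake on cell division that is expressed from the maternal allele, and its promoter carries a somatic mark on the paternal allele. The Cdkn1c region, chr7:143461048-143461379, held 44 CpGs in 332 bp, more than any other of the 1404 regions with a lower level in Scnn1b-Tg AMs. Its authors' mean was 0.438 in WT and 0.290 in Scnn1b-Tg AMs, below every other member in both genotypes. It covered the start of the gene: 3 bases lay in the 5′ UTR of exon 1 and the others upstream. The germline control region of this cluster is the promoter of Kcnq1ot1, a noncoding RNA of the paternal allele, and its start lay 164.5 kb from the DMR. No region in the table was assigned to Kcnq1ot1, Kcnq1, Phlda2 or Slc22a18, the last 2 of which lie 41.2 and 12.4 kb from the Cdkn1c region. The levels at those sites were not analysed here.

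**Figure D1:**
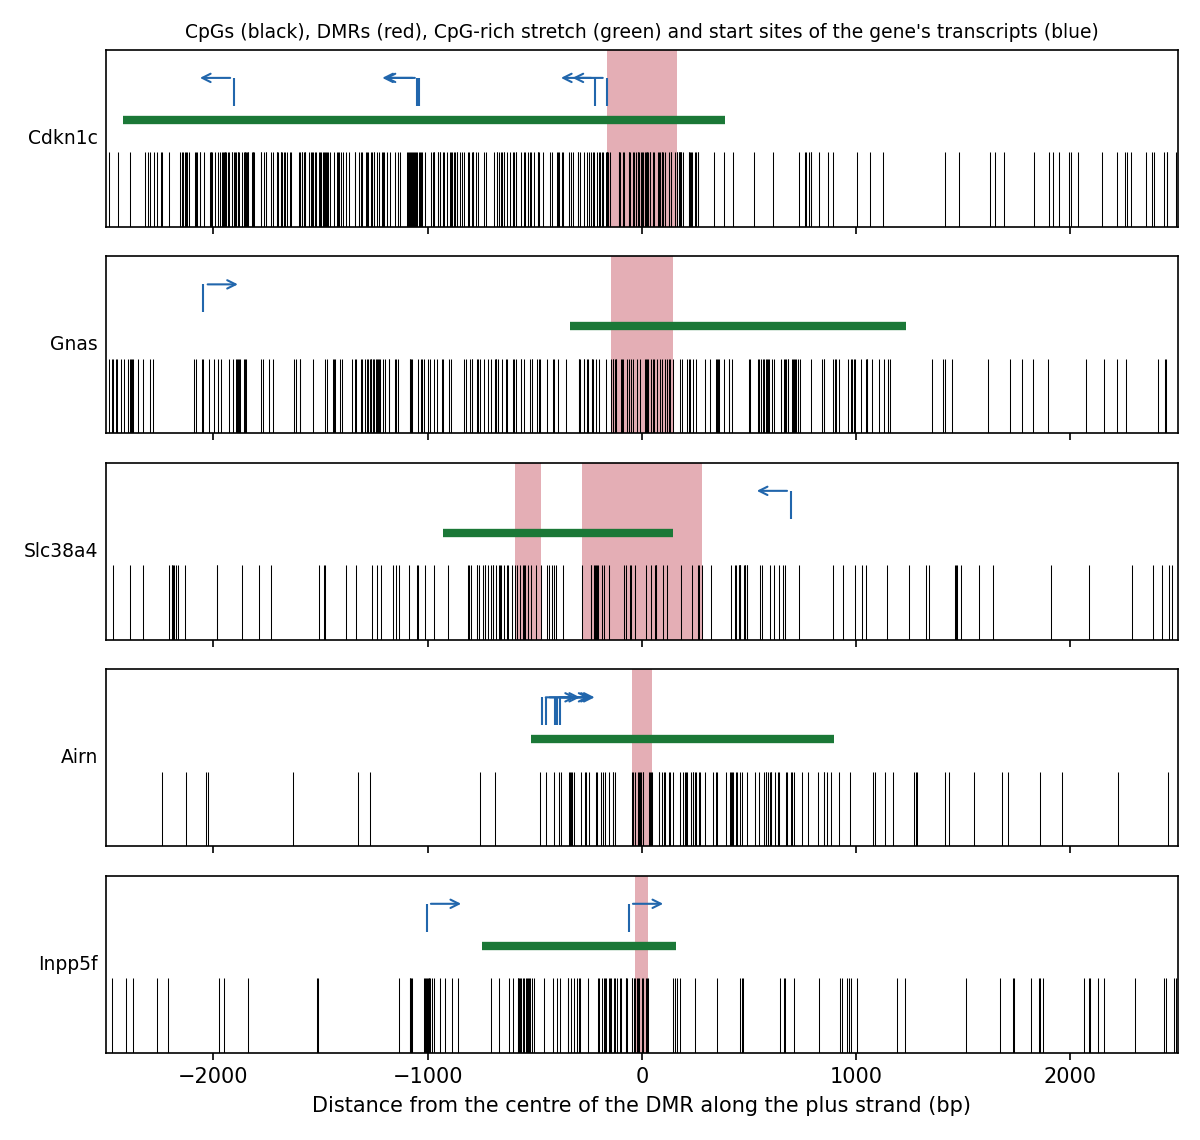
Map of the 5 loci, with distance from the centre of the DMR in bp along the plus strand on the x axis (for Slc38a4, from the centre of the longer region). Black ticks are CpGs of GRCm38.p6, red bands the DMRs, the green bar the CpG-rich stretch described in the text, and blue arrows the annotated starts of the gene's own transcripts. The Cdkn1c region lies at the upstream edge of its stretch of 286 CpGs, and the Airn and Inpp5f regions hold 13.8% and 14.8% of the CpGs of theirs.

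The members were similar in base composition, a property related to the CpG number used in the choice. Their median GC content was 68.6%, against 49.0% over all regions and 55.3% over the 335 regions with at least 9 CpGs. Their median ratio of observed to expected CpGs was 0.962, against 0.572 and 0.734. All 6 met the usual CpG island criteria (GC of at least 50% and a ratio of at least 0.6) over the region itself, as did 25.5% of the 1926 regions and 50.8% of the 329 regions with at least 9 CpGs that were not assigned to a gene of the imprinted list. Within 3 kb of the assigned start, where all members lay, 37.4% of regions and 4 of 6 regions of other listed imprinted genes met them. Over a window of 500 bases around the region, 6 of 6 members met them, against 6.02% of all regions and 19.1% of those 329. Within 3 kb, 17.5% of regions and 1 of the 6 of other listed imprinted genes met them over this window. Density ranged from 5.00 CpGs per 100 bp in the longer Slc38a4 region to 14.5 in Inpp5f, where the median over all regions was 3.13. The median was 7.51 over the regions of other listed imprinted genes within 3 kb of a start.

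Each member DMR lay within a longer CpG-rich stretch, apart from the longer Slc38a4 region, which overlapped one in part. Joining all windows of 200 bases that met the criteria gave a stretch of 2813 bp with 286 CpGs around the Cdkn1c region, of which the DMR held 15.4% of the CpGs. The Airn stretch had 1416 bp and 94 CpGs, the Gnas stretch 1570 bp and 108, and the Inpp5f stretch 908 bp and 61. At Slc38a4, 1 stretch of 1078 bp with 61 CpGs took in the shorter region whole and 427 of the 560 bases of the longer one.

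ZFP57 is a zinc finger protein that binds methylated TGCCGC at imprinting control regions and keeps their methylation in the early embryo. Searched on both strands, TGCCGC was found only in the Airn region, at positions 40 and 48 of the sequence printed above, in 1 of 6 members. It was in 5.04% of all 1926 regions, in 15.2% of the 335 regions with at least 9 CpGs, and in 11.6% of the 32851 RefSeq promoter sequences of 300 bases. With 250 bases added on each side, it was found at 3 of 6 members (4 matches at Gnas, 3 at Airn and 2 at Inpp5f), against 11.7% of all regions, 29.3% of those with at least 9 CpGs and 4 of the 6 regions of other listed imprinted genes within 3 kb of a start. GCCATNTT, the motif of the factor YY1, was in no member and in 8.10% of all regions. These matches describe the reference letters in these windows and not binding.

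**Figure D2:**
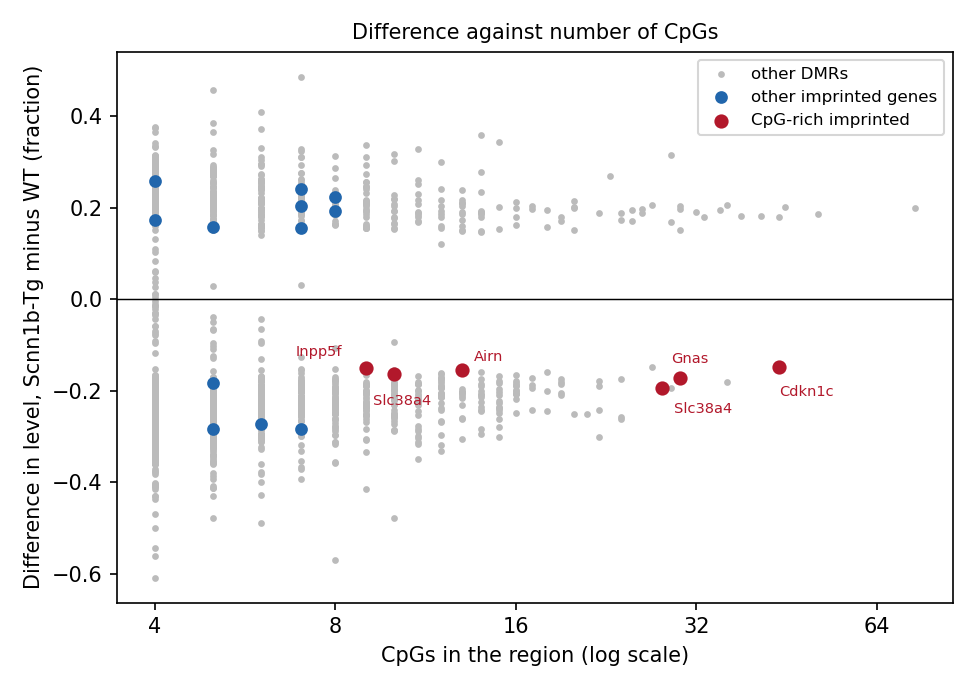
Difference of the authors' mean levels (Scnn1b-Tg minus WT, as a fraction) on the y axis against the number of CpGs in the region on a log x axis, with 1 point per DMR. The 6 member regions, in red, span 9 to 44 CpGs and lie between -0.194 and -0.148, and the regions of other imprinted genes, in blue, hold 4 to 8 CpGs and lie on both sides of 0.

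By number of CpGs, which the choice used, 3 members were near the top of the regions with a lower level in Scnn1b-Tg AMs. Among the 1404 such regions, Cdkn1c ranked 1, Gnas 3 and the longer Slc38a4 region 5 by number of CpGs, with Eif1ax (36 CpGs), Slc7a2 (29) and Ptgir (28, tied with Slc38a4) beside them. The other members ranked 70 (Airn), 134 (shorter Slc38a4 region) and 171 (Inpp5f). Over all regions of either direction, the ranks were 4 for Cdkn1c, 13 for Gnas and 20 for the longer Slc38a4 region. They were 121 for Airn, 218 for the shorter Slc38a4 region and 270 for Inpp5f. The absolute difference of a member, by contrast, exceeded that of only 2.65% (Cdkn1c) to 18.4% (longer Slc38a4 region) of all regions. Of the 335 regions with at least 9 CpGs, 208 (62.1%) were lower in Scnn1b-Tg AMs and 127 higher.

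The WT level of every member lay between 0.4 and 0.6, which was so for 313 regions of the table (16.3%). It was also so for 6 of the 12 regions of other listed imprinted genes and for 29.9% of regions within 3 kb of their assigned start. The median WT level over all regions was 0.768. Of those 313 regions, 126 (40.3%) were lower in Scnn1b-Tg AMs, and of the 77 among them with at least 9 CpGs, 36 (46.8%) were. Within 3 kb of their assigned start, 106 of 211 regions were lower.

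**Figure D3:**
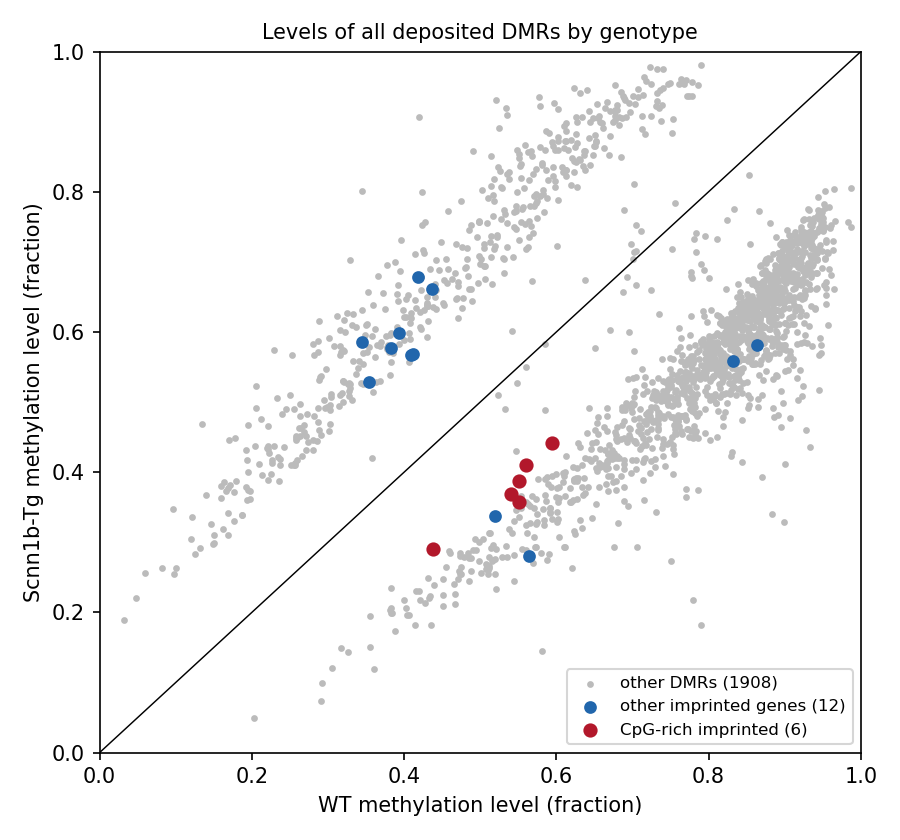
Scnn1b-Tg level against WT level (authors' means, fractions) for all 1926 DMRs, with the line of equal levels. The 6 member regions, in red, lie below the line with WT levels from 0.438 to 0.595, and the other 12 regions of imprinted genes, in blue, lie 4 below and 8 above it.

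Other imprinted genes in the table did not share one direction. A list of 70 imprinted genes, compiled with their class of control region, had 16 genes with 18 regions, of which 10 were lower and 8 higher in Scnn1b-Tg AMs. The 10 lower regions include the 6 members, whose lower level was known when they were chosen. The 11 genes other than the members had 12 regions of 4 to 8 CpGs, 4 lower and 8 higher. Over all 1926 regions 72.9% were lower, and 50.2% of those within 3 kb of their assigned start. Genes at germline control regions with maternal methylation had 11 regions, 6 lower and 5 higher, and the 5 lower members among them are those at Gnas, Airn, Inpp5f and Slc38a4.

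The 5 higher regions of this class were promoter regions of Mest, Peg3, Peg13 and Plagl1. At Mest, which encodes a hydrolase-like protein of the paternal allele, the WT mean of the authors was 0.354 and the Scnn1b-Tg mean 0.528 (4 CpGs). At Peg3, a zinc finger gene of the paternal allele, it was 0.383 and 0.577 (8 CpGs). At Peg13, a noncoding RNA, it was 0.411 and 0.569 (7 CpGs), and this region also held 1 TGCCGC. Plagl1, a zinc finger regulator of growth, had regions with 0.408 and 0.567 (5 CpGs) and with 0.393 and 0.598 (7 CpGs). Zrsr1, a splicing factor gene of the paternal allele, had the remaining lower region, at 0.520 in WT and 0.337 in Scnn1b-Tg AMs (5 CpGs).

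The averages of both genotypes overlapped between the directions. The average of the WT and Scnn1b-Tg levels was 0.454 to 0.518 for the 5 member regions other than Cdkn1c and 0.441 to 0.495 for the 5 higher regions of the class, and it was 0.428 for the lower Zrsr1 region. The lower members of the class had a mean WT level of 0.560 and the higher regions of 0.390, and their Scnn1b-Tg means were 0.393 and 0.568. These groups were split by direction, so with overlapping averages this order of the means follows from the split, and nothing is read from it. The Cdkn1c region stood lower, with an average of 0.364. Over all regions the average was 0.644.

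**Figure D4:**
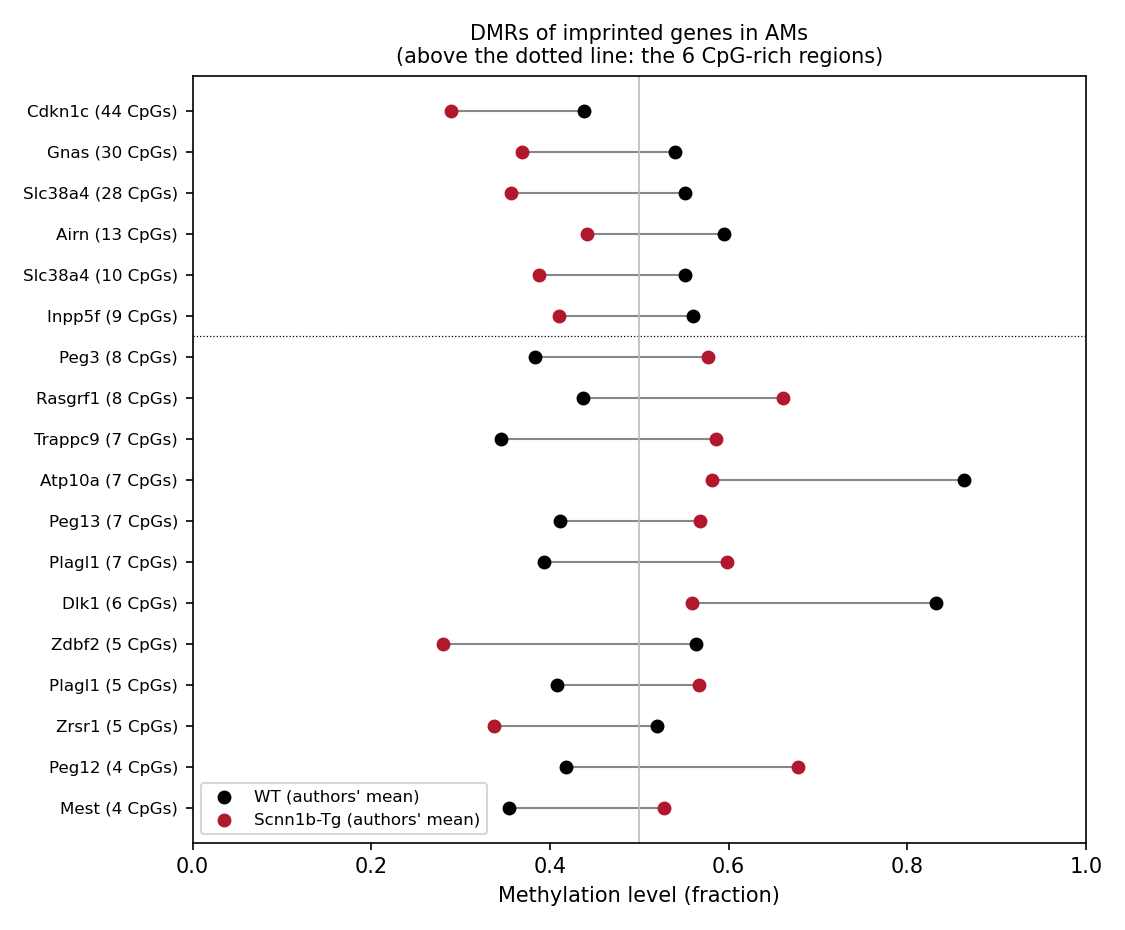
Authors' mean methylation level (fraction, x axis) in WT (black) and Scnn1b-Tg AMs (red) for the 18 regions of listed imprinted genes, 1 line per region, ordered by number of CpGs, with the 6 member regions above the dotted line and a grey line at an equal share of methylated and unmethylated reads. All 6 members have the red point to the left, and 8 of the 12 others have it to the right.

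Within 250 kb, 19.1% of the 1926 regions had a region of another gene. Among the members only the Slc38a4 regions had one, at Pced1b, 190.1 kb from the longer region (0.713 in WT and 0.547 in Scnn1b-Tg AMs, 4 CpGs). The nearest region of another gene lay 305.5 kb from Cdkn1c (Mrgprg), 556.8 kb from Inpp5f (Itgax), 572.9 kb from Airn (Agpat4) and 825.7 kb from Gnas (1700021F07Rik). Of these, the regions of Mrgprg and Agpat4 were higher in Scnn1b-Tg AMs: Mrgprg had 0.455 in WT and 0.704 in Scnn1b-Tg AMs, and Agpat4 0.414 and 0.646.

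The pair of levels seen at the members also occurred at genes outside the imprinted list. The 329 regions with at least 9 CpGs were ranked by distance in the plane of both levels from the members' mean pair. The closest was assigned to St3gal3, a sialyltransferase gene (0.553 in WT, 0.366 in Scnn1b-Tg AMs, 16 CpGs). It lay upstream of the assigned start (-3104 bp), so its class of 3′ UTR need not be that of St3gal3. Regions assigned to Fmn1, which encodes the actin regulator formin (0.560 and 0.357, 13 CpGs), and Rars, the arginyl-tRNA synthetase gene (0.547 and 0.346, 18 CpGs), followed, both classed as exon. Those assigned to Mgst2, a glutathione S-transferase gene (0.563 and 0.354, 15 CpGs), and Capzb, of the actin capping protein (0.566 and 0.351, 11 CpGs), were classed as intron. The Rars and Capzb regions also lay upstream of their assigned starts (-7254 and -27623 bp). The transcript behind each class was not compared with the assigned gene. Their distances to the members' mean were 0.0174 to 0.0362, and the ranking had picked the smallest. The members' own distances were 0.00669 for Gnas to 0.133 for Cdkn1c. Of these 5 regions, only that of St3gal3 met the CpG island criteria over the region, and none met them over 500 bases, where all 6 members did.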

How the data were processed

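Per the submitters' processing notes and the study's methods, the authors trimmed reads with Trimmomatic 0.36, aligned them to mm10 with BWA 0.7.8, marked duplicates with Picard, called CpG methylation with MethylDackel, smoothed each sample with bsmooth and called DMRs with DSS, which selects on CpG number, length, difference and adjusted p. The tool that assigned genes to DMRs was not stated for this table. The deposited methylation levels are fractions, the authors' mean per genotype. The authors' difference and area statistic hold their own comparison and were not used, and the difference was recomputed from the means. The smallest recomputed absolute difference was 0.00250, below the minimum that the methods state, which every member region exceeded.

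Regions, CpG numbers and composition were read against RefSeq GRCm38.p6 and GENCODE with Python 3.11.15, pandas 2.3.3 and pysam 0.24.0. Chromosomes and positions fitted this build: all 1926 regions began and ended on a CpG, and the CpG number equalled the reference in 1707, all 6 members included. The counting of CpGs and the motif search were tested on simulated sequences, and the other steps were not. With 1 mean per genotype, no test was possible here. Genes named are the members, listed imprinted genes with a region, neighbours within 250 kb and the 5 regions of other genes closest in level. Eif1ax, Slc7a2, Ptgir and the nearest regions beyond 250 kb were added after their values were seen. Members and lists were chosen with earlier results of these data known. Alternatives were weighting by CpGs, the gene assignment, distance to the start, and the window.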

Additional observations from a re-analysis of the deposited data

How the results depend on the processing

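Of 11 alternatives, 9 left the value within the spread between member regions or, for counts, within 1.5 times. None could change a direction, because counts and levels carry no sign and every member difference was negative. The alternatives that used the CpG number or density of the reference could not differ either, since both equalled the deposited ones at every member. Weighted by CpGs, the member means were 0.516 in WT and 0.352 in Scnn1b-Tg AMs, with a difference of -0.165, and 1 value per gene gave -0.160 against -0.163. With genes assigned by the nearest annotated start, 5 member regions remained, since the Inpp5f region went to Gm43580, and the imprinted list had 6 lower regions of 10 in place of 10 of 18. Within 3 kb of the start, 7 of 12 listed regions were lower, against 50.2% of all regions there. Of these 7, 6 were the members, whose lower level was known when they were chosen. Of the regions of other listed genes within 3 kb, 1 of 6 was lower. With 250 bases added on each side, 3 members held TGCCGC in place of 1. No paired analysis was possible because the table gives 1 mean per genotype, and for the same reason no replicate could be left out. The depth at each region, which sets the precision of its level, is not in the table.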

Other observations

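Regions of imprinted genes far from the start of a gene or with control regions of other classes were mixed too. Among genes with paternally methylated germline control regions, the region assigned to Dlk1, which encodes a Notch-like ligand, had an authors' mean of 0.832 in WT and 0.559 in Scnn1b-Tg AMs (6 CpGs), and that of Zdbf2 had 0.564 and 0.281 (5 CpGs). The third, of Rasgrf1, a guanine nucleotide exchange factor gene, was higher, with 0.437 and 0.661 (8 CpGs). Atp10a had 0.864 and 0.581 (7 CpGs), and Peg12 had 0.418 and 0.678 (4 CpGs). Trappc9, within which Peg13 lies, had a region of 7 CpGs with 0.345 and 0.586, 161.3 kb from the Peg13 region, and both were higher in Scnn1b-Tg AMs. Only the means per genotype were used here, so these differences were not tested again.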
